A study of Brassica rapa subsp. pekinensis with 2 samples.

Results

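miR156 and miR172 are the paired microRNA families of phase change and flowering in plants. In the deposited table of petal small RNAs from Chinese cabbage (Brassica rapa subsp. pekinensis) they were represented by 5 of 34 rows, taken as every row whose name starts with bra-miR156 or bra-miR172. These were bra-miR156a-5p, bra-miR172c-3p and the 5p rows bra-miR172b-5p, bra-miR172c-5p and bra-miR172d-5p. The study set petals of doubled haploid plants beside petals of autotetraploid plants, which carry extra sets of the same chromosomes. Plants of both ploidy levels derived from the doubled haploid line FT and shared their growth conditions. Petals were taken fully expanded, at the flowering stage. Each ploidy level had 1 library, called P2x for the doubled haploid and P4x for the autotetraploid below, and the labels do not say how many plants went into it. No test between ploidy levels is therefore possible, and every difference below is between these 2 libraries. The table holds no marker by which the petal label could be checked.

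MicroRNAs are short RNAs that guide the silencing of transcripts with a matching site. In Arabidopsis, miR156 silences transcripts of SPL transcription factors and keeps young plants juvenile, and its level falls as the plant ages. SPL factors in turn raise transcription of MIR172 genes, and miR172 silences APETALA2-like factors, which delay flowering and, in the flower, take part in specifying sepals and petals. A microRNA is cut from a hairpin with a 5p and a 3p arm. For miR156 the arm that silences SPL transcripts is 5p, and for miR172 the arm that silences APETALA2-like transcripts is 3p, while the opposite arm is mostly degraded.

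Values are in RPM, the reads of a row per 1000000 of its library's normalising total. One read was worth 2.21 RPM in P4x and 2.32 RPM in P2x, which gives normalising totals of 451878 and 431681 reads. Intervals are exact 95% intervals of the reads and cover counting error only. The 5 rows held 1352 reads in P4x and 605 in P2x, or 2.33% and 2.99% of the reads of all listed rows. The title line of the table calls its rows differentially expressed, and in the authors' deposited table the smallest log2 fold change in size was 1.0034, just over 2-fold. The ratios of listed rows therefore describe rows picked on these same libraries and are not independent evidence of a difference.

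bra-miR156a-5p and bra-miR172c-3p, the arms known to silence targets, were 2.12-fold and 2.34-fold higher in the autotetraploid library in RPM, although both were lower there as shares of the listed reads. Their ratios could not be told apart by counting. The number of miR156 reads for each miR172 read was 10.4 in P4x and 11.1 in P2x, within counting error of each other. The 5p rows of miR172 rested on 0 to 16 reads per library and did not share a direction.

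bra-miR156a-5p, the SPL-silencing arm, was by far the most abundant of the 5 rows in both libraries. It stood at 2729 RPM in P4x (1233 reads, interval 2578 to 2885 RPM) and at 1286 RPM in P2x (555 reads, interval 1181 to 1397 RPM). The intervals of the libraries lay apart. The ratio of autotetraploid to doubled haploid was 2.12 (interval 1.92 to 2.35, which reaches below 2). It held the sixth place of all 34 rows in each library. In the autotetraploid library it lay between novel_184 at 3585 RPM and novel_81 at 1036 RPM, and in the doubled haploid library between novel_45 at 1411 RPM and novel_184 at 1077 RPM. It had the most reads of the 5 rows, so its ratio is the most precise of the set. In Arabidopsis several MIR156 genes yield the same mature 5p sequence. The RefSeq annotation CAAS_Brap_v3.01 holds 6 MIR156 genes (MIR156A to MIR156F), of which MIR156A alone matches a listed row, and reads of a shared sequence cannot be assigned to 1 of these genes.

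bra-miR172c-3p, the arm that silences APETALA2-like transcripts, was the most abundant miR172 row in both libraries. It stood at 206 RPM in P4x (93 reads, interval 166 to 252 RPM) and at 88.0 RPM in P2x (38 reads, interval 62.3 to 121 RPM). The intervals again lay apart, and the ratio was 2.34 (interval 1.59 to 3.51). It held 78.2% of the miR172 reads in P4x (interval 69.6% to 85.2%) and 76.0% in P2x (interval 61.8% to 86.9%). The odds of a miR172 read being this row differed between libraries by a factor of 1.13 (interval 0.468 to 2.61, which includes 1). No 3p row of another miR172 gene was in the list. In Arabidopsis the 3p strands of miR172c and miR172d are identical, so a row named for 1 gene may hold reads of another, and the table gives no sequence to tell them apart.

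The 3 remaining rows are 5p arms of miR172, opposite to the arm known to silence targets. bra-miR172b-5p stood at 35.4 RPM in P4x (16 reads) and 16.2 RPM in P2x (7 reads). bra-miR172c-5p stood at 22.1 RPM (10 reads) and 2.32 RPM (1 read). bra-miR172d-5p had 0 reads in the autotetraploid library (interval 0 to 8.16 RPM) and 9.27 RPM (4 reads) in the doubled haploid library. The floor of 3 reads used for this 0 is 6.64 RPM in the autotetraploid library. In RPM the former pair was thus higher, and bra-miR172d-5p lower, in the autotetraploid library, while bra-miR172b-5p was lower there as a share of the listed reads. The ratio of bra-miR172b-5p was 2.18 (interval 0.850 to 6.28, which includes 1). The ratio of bra-miR172c-5p was 9.55, but its interval ran from 1.36 to 415 because the doubled haploid value is a single read. With a 0 set at the floor of 3 reads, that ratio was the highest of the 33 listed rows with a ratio. This place depends on the floor. bra-miR9568-3p, at 7 reads in P4x and 0 in P2x, stood at 2.23 through the floor, and its interval had no upper end. bra-miR172d-5p was 1.40-fold lower with its 0 set at the floor of 3 reads, a ratio of 0.716, and at a floor of 1 read the ratio was 0.239. Its fold thus rests on the floor, and its counting interval, which needs none, ran from 0 to 1.45. In the authors' deposited table these rows nevertheless had q-values of 0.0096073 for bra-miR172b-5p, 3.16e-05 for bra-miR172c-5p and 0.00080008 for bra-miR172d-5p. For each of these rows the q-value was smaller than the deposited p-value. Those q-values compare single libraries and hold no variation between plants.

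**Figure D1:**
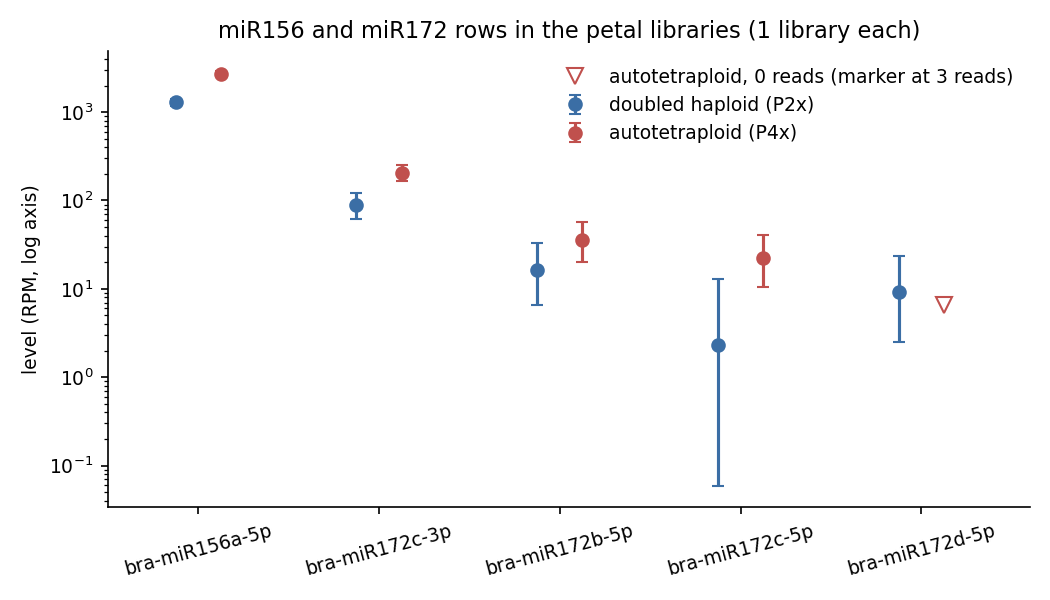
Level of each miR156 and miR172 row in RPM (log axis) in the doubled haploid (blue) and autotetraploid (red) library, with exact 95% counting intervals as bars and an open triangle for 0 reads drawn at the floor of 3 reads. The intervals of bra-miR156a-5p and bra-miR172c-3p lie apart between libraries, and those of the 5p rows of miR172 with reads in both libraries overlap.

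The order of levels was the same in both libraries down to the third row. In the autotetraploid library bra-miR156a-5p had 13.3 times the reads of bra-miR172c-3p (interval 10.7 to 16.6). In the doubled haploid library that factor was 14.6 (interval 10.5 to 20.9). bra-miR172c-3p in turn had 5.81 times the reads of bra-miR172b-5p in the autotetraploid (interval 3.40 to 10.6) and 5.43 times in the doubled haploid library (interval 2.39 to 14.4). Below that the counts fixed less of the order. In the autotetraploid library bra-miR172b-5p and bra-miR172c-5p, at 16 and 10 reads, did not differ beyond counting error, with a ratio of 1.60 (interval 0.683 to 3.94), while the interval of bra-miR172c-5p over bra-miR172d-5p, at 10 and 0 reads, began at 2.24. In the doubled haploid library the intervals between bra-miR172b-5p, bra-miR172d-5p and bra-miR172c-5p, at 7, 4 and 1 reads, likewise included 1 for each neighbouring pair. How evenly the library preparation captured different microRNAs was not tested, and it bears on levels compared between rows.

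The arms of the miR172c hairpin were both in the list, as bra-miR172c-3p and bra-miR172c-5p. In the autotetraploid library 10 of 103 miR172c reads were 5p, a share of 9.71% (interval 4.75% to 17.1%). In the doubled haploid library 1 of 39 was 5p, a share of 2.56% (interval 0.0649% to 13.5%). The 3p arm was thus the more abundant arm in both libraries, by a factor of 9.30 in P4x (interval 4.84 to 20.0) and 38.0 in P2x (interval 6.42 to 1540). The odds of a 5p read were 4.09 times as high in the autotetraploid library, but the interval from 0.543 to 182 included 1, so a change in the share of the arms was not detectable at this depth. Over all 4 miR172 rows the 5p share was 21.8% in P4x (26 of 119 reads, interval 14.8% to 30.4%) and 24.0% in P2x (12 of 50 reads, interval 13.1% to 38.2%). There the difference had the opposite sign, and its odds ratio of 0.885 had an interval from 0.383 to 2.13. That pooled share sets 5p rows of 3 names against the 3p row of 1, so it is not a share within a hairpin. The miR172c share may mix genes too, because bra-miR172c-3p may hold reads of another miR172 gene with the same 3p sequence. The arm shares and factors above therefore compare rows by name, and whether they hold for a single hairpin was not tested.

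The balance of the families was read as the reads of bra-miR156a-5p over the reads of the miR172 rows, a ratio within a library that needs no normalising total. It was 10.4 in the autotetraploid library (1233 against 119 reads, interval 8.58 to 12.6). In the doubled haploid library it was 11.1 (555 against 50 reads, interval 8.30 to 15.1). Each interval held the other library's value. The autotetraploid balance was 0.933 times that of the doubled haploid (interval 0.647 to 1.33). Counting alone thus leaves room for a balance lower by about a factor of 0.647 or higher by a factor of 1.33, and a miss of the threshold does not show that the balances were equal. Against bra-miR172c-3p alone, the arm known to act, the balance was 13.3 and 14.6, and the ratio of these was 0.908 (interval 0.597 to 1.36). Rows of either family outside the list of differing miRNAs were not analysed here and are not in this balance. The selection of the list also limits which changes of balance could appear, because bra-miR156a-5p and bra-miR172c-3p were both listed as higher in the autotetraploid library. A ratio of balances near 1 is thus not independent evidence of an unchanged balance.

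**Figure D2:**
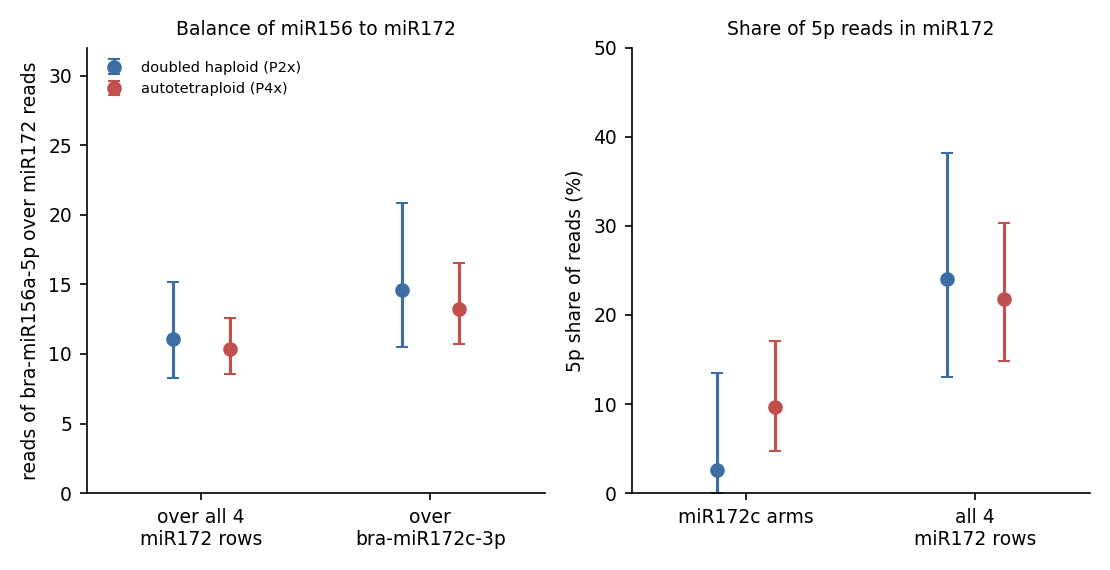
Left, reads of bra-miR156a-5p for each miR172 read, over all 4 miR172 rows and over bra-miR172c-3p alone. Right, percent of 5p reads among the reads of both miR172c arms and among those of all 4 miR172 rows. Points are the doubled haploid (blue) and autotetraploid (red) library with exact 95% counting intervals, and the intervals of both libraries overlap in all 4 comparisons.

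Set against the whole list, the direction of the 5 rows in RPM was near the background. Of the 5 rows, 4 had the higher value in the autotetraploid library, as did 24 of all 34 rows (70.6%), and 1 had the higher value in the doubled haploid library, as did 10 of 34 (29.4%). With a 0 set at the floor of 3 reads, 4 were at least 2-fold higher (70.6% of all rows) and 0 at least 2-fold lower (23.5% of all rows), although bra-miR172d-5p would pass 2-fold lower at a floor of 1 read. The counting interval lay above a ratio of 1 for 3 of the 5, namely bra-miR156a-5p, bra-miR172c-3p and bra-miR172c-5p, and for 58.8% of all rows. It lay below 1 for 0 of the 5 and for 14.7% of all rows, and wholly above 2 for 0 of the 5 and for 29.4% of all rows. The median log2 ratio was 1.13 over the 5 rows and 1.30 over the 33 listed rows with a ratio. Among the 24 higher rows, only 1 had a smaller ratio than bra-miR156a-5p and 5 had a smaller ratio than bra-miR172c-3p. Both members thus lay near the lower end of the listed increases, close to the 2-fold edge of the list.

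Between members, 10 pairs of ratios were compared, and 4 intervals excluded equality (49.8% of the 560 pairs of listed rows that could be compared did so). All 4 were pairs with bra-miR172d-5p, the row with 0 reads in the autotetraploid library and the only one of the 5 listed for a lower value there. The clearest was with bra-miR172c-5p, which had 10 reads in P4x and 1 in P2x where bra-miR172d-5p had 0 and 4. The ratio of bra-miR172c-5p exceeded that of bra-miR172d-5p by a factor whose interval began at 2.25. Against bra-miR156a-5p and bra-miR172c-3p that lower bound was 1.46 and 1.52, and against bra-miR172b-5p it was 1.13. Rows listed in opposite directions differ through the selection of the list, so these 4 intervals are not independent evidence of a difference. The other 6 pairs had intervals that included 1, and the narrowest was that of bra-miR156a-5p against bra-miR172c-3p, from 0.597 to 1.36.

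**Figure D3:**
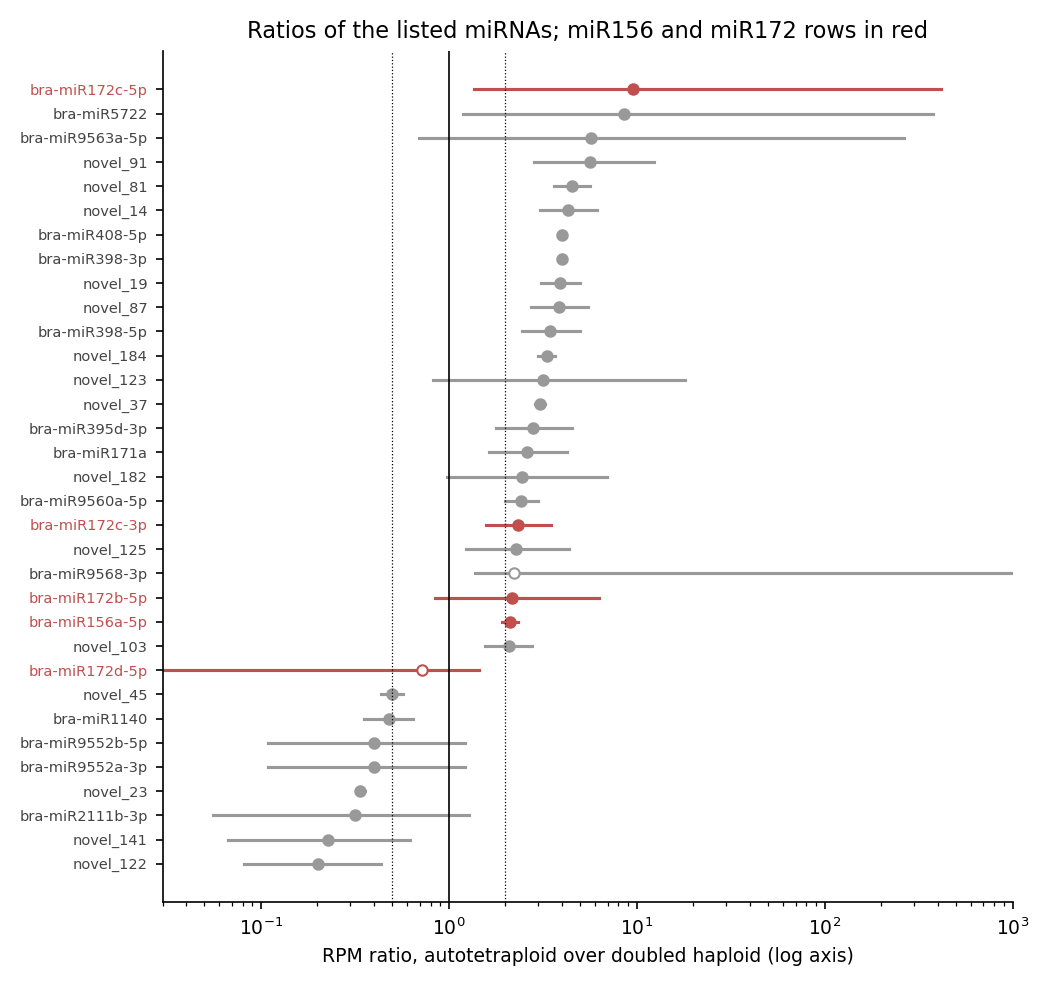
Ratio of autotetraploid to doubled haploid RPM (log axis) for the 33 listed miRNAs with a ratio, with exact 95% counting intervals and the miR156 and miR172 rows in red. Open circles have a 0 set at the floor of 3 reads, dotted lines mark a 2-fold difference, and bars are clipped at the ends of the axis. bra-miR156a-5p, bra-miR172b-5p and bra-miR172c-3p lie close to the 2-fold line, and bra-miR172c-5p has the highest ratio at this floor, with a wide interval.

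The rows most like bra-miR156a-5p in their ratio over the 2 libraries, by absolute difference of log2 ratio, were novel_103, bra-miR172b-5p and novel_125. novel_103 stood at 352 RPM in P4x and 169 RPM in P2x, a ratio of 2.08 (interval 1.57 to 2.78), which lay 0.029 from that of bra-miR156a-5p on the log2 scale. novel_125 had a ratio of 2.27 (interval 1.24 to 4.36). For bra-miR172c-3p the closest were novel_125, bra-miR9560a-5p and novel_182, with log2 differences of 0.043, 0.060 and 0.071. bra-miR9560a-5p, at 768 RPM in P4x and 315 RPM in P2x, had a ratio of 2.44 (interval 1.99 to 2.99). With 2 libraries such likeness is a single number per row and carries no more than that.

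The direction of a ratio depended on the total it was taken against. Relative to the deposited normalising totals, bra-miR156a-5p, bra-miR172b-5p and bra-miR172c-3p were higher in the autotetraploid library, but as shares of the listed reads they were lower there. bra-miR156a-5p made up 2.12% of the listed reads in P4x and 2.74% in P2x, a ratio of 0.774 (interval 0.700 to 0.857). bra-miR172c-3p made up 0.160% and 0.188%, a ratio of 0.853 (interval 0.579 to 1.28, which includes 1). This change of total moved every ratio by -1.46 on the log2 scale. Most of that total came from bra-miR398-3p and bra-miR408-5p, rows of copper-linked families that held 79.5% of the listed reads in P4x and 54.5% in P2x. Without these in the listed total the shift was -0.30, and bra-miR156a-5p was 1.72-fold and bra-miR172c-3p 1.89-fold higher in the autotetraploid library. With the 3 most abundant rows left out of the deposited normalising totals, bra-miR156a-5p was 2.29-fold and bra-miR172c-3p 2.52-fold higher there. Of the totals used, only the whole listed total reversed the direction of these rows. The rows of the list were chosen for a difference, so neither listed total is a neutral reference. The balance of miR156 to miR172 and the arm shares are the same under every such total.

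**Figure D4:**
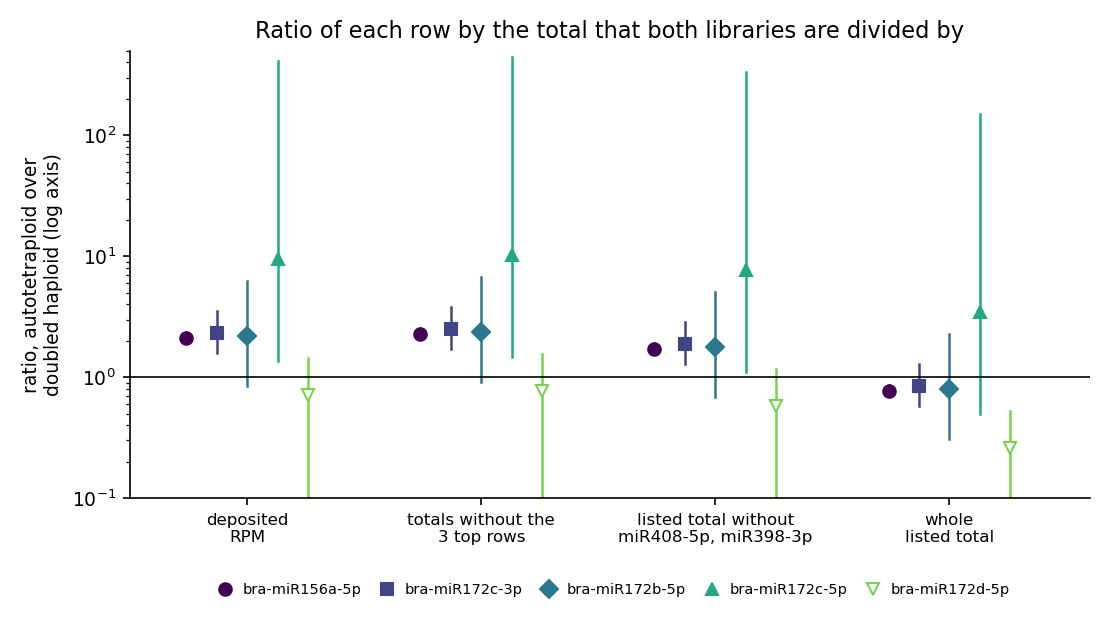
Ratio of autotetraploid to doubled haploid (log axis) for each miR156 and miR172 row under 4 totals, with exact 95% counting intervals, clipped at the lower end of the axis. An open marker has a 0 set at the floor of 3 reads. All rows shift together, and bra-miR156a-5p passes from 2.12 in deposited RPM to 0.774 as a share of the whole listed total.

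Of the other families on the list of phase change and related regulators, miR157, miR159, miR319 and miR390, 0 rows were in the table, so they were not analysed here. In Arabidopsis miR157 also acts on SPL transcripts, miR159 and miR319 act on MYB and TCP factors, and miR390 sets off the small RNAs that silence auxin response factors. Of the miR172 genes in the RefSeq annotation, MIR172C and MIR172D matched listed rows and MIR172A did not. SPL and APETALA2-like transcripts were not measured in these libraries, so the values above describe the microRNAs only.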

How the data were processed

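Small RNA from petals was measured in 1 doubled haploid and 1 autotetraploid library. Per the labels' protocols, TRIzol was used for extraction and an NEBNext Ultra kit for the libraries. Bowtie is named, with no version or role, in the submitters' processing notes. Not given in the sources used here are the genome build, the microRNA reference and the test.

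The authors deposited 34 rows that the title line calls differentially expressed, with values named TPM. These deposited values behaved as RPM: each of the 65 non-zero values was a multiple of 1 step per library (tolerance 0.001 of a read), and dividing by that step gave the reads. The deposited log2 fold change was recomputed within 0.0002 as autotetraploid over doubled haploid, where a 0 counted as 0.5. The deposited p-values and q-values (Storey's method for the latter, per the file headers) were copied only where the authors' deposited table is named.

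Levels have exact Poisson intervals, ratios and shares exact Clopper-Pearson intervals, and differences between ratios exact conditional intervals of the odds ratio, all at 95%. For a 0, 3 reads were used as a floor. Reads carry no molecular identifiers in the labels, so the intervals cover counting error only, and they are not corrected for the authors' selection. All 5 rows are named. The 3 rows nearest in log2 ratio to bra-miR156a-5p and to bra-miR172c-3p were taken among those of at least 10 RPM. The members, lists and rules were chosen with earlier results of these data known. Gene names come from RefSeq annotation CAAS_Brap_v3.01, which matched 4 of the 5 rows (not bra-miR172b-5p). No sequences were used here. Calculations used Python 3.11.15 with numpy 2.4.6 and scipy 1.17.1, and matplotlib 3.10.9 drew the plots. The intervals were tested on simulated Poisson reads, with no selection of rows. Intervals of odds ratios were simulated only at mean counts above those of each 5p row of miR172, so their coverage at such small counts was not tested. Alternatives covered pseudocounts, the total, the floor, the miR172 rows summed, the filter on low values, the call rule and the interval.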

Additional observations from a re-analysis of the deposited data

How the results depend on the processing

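The total without bra-miR408-5p and bra-miR398-3p was chosen after seeing the data. Of 31 alternative ratios of single rows, 27 kept their direction and lay within the counting interval. A pseudocount cannot reverse a ratio, and the intervals of bra-miR172c-5p and bra-miR172d-5p are so wide that every alternative lay within them. This count therefore says little about how stable the ratios are. With the listed total as reference the ratio of bra-miR156a-5p became 0.774, of bra-miR172b-5p 0.796, of bra-miR172c-3p 0.853 and of the miR172 sum 0.829 (2.27 in RPM), and 1 row was at least 2-fold higher (bra-miR172c-5p) and 1 lower (bra-miR172d-5p). By construction that setting multiplies every ratio by 0.365. Without bra-miR408-5p and bra-miR398-3p in the listed total, 1 row was at least 2-fold higher and 0 lower. With a pseudocount of 0.1 or 1 RPM, 1 row was at least 2-fold lower, because bra-miR172d-5p then has no floor. With a floor of 1 read its ratio was 0.239 in place of 0.716 at 3 reads, which is also past 2-fold lower. The balance in the autotetraploid library was 13.3 against bra-miR172c-3p alone, which has fewer reads than the sum. The 5p share over all miR172 rows was 21.8% in P4x (autotetraploid) and 24.0% in P2x (doubled haploid), against 9.71% and 2.56% over the miR172c rows alone. The change of the balance was 0.933 over all miR172 rows, 0.908 over bra-miR172c-3p alone, 0.859 without rows under 10 RPM and 1.03 over the 5p rows alone, and each of these 4 intervals included 1. Depth limits the 5p rows of miR172, with at most 16 reads in a library. No paired analysis was possible because each ploidy level had 1 library, and for the same reason no replicate could be left out.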
